A study of Mus musculus with 10 samples.

Results

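Collagen genes were examined in C2C12, a mouse myoblast line that fuses into myotubes when serum is withdrawn. Every gene whose symbol read Col, a number, a and a number was taken, and it was kept if at least 1 column of any table held 1 FPKM or more (FPKM counts sequenced fragments per transcript length and library size, so levels of different genes can be set side by side). This left 28 of 44 listed collagen genes, out of 23460 genes listed in at least 1 table. Of the 28, 10 were fibrillar collagens, 5 belonged to basement membranes, 6 to networks and beaded filaments, 3 were fibril-associated, 3 were transmembrane collagens and 1, Col7a1, forms anchoring fibrils. Just inside the limit stood Col23a1 with a highest value of 1.15 FPKM and Col10a1 with 1.66 FPKM, and just outside it Col17a1 with 0.804 FPKM and Col28a1 with 0.669 FPKM.

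The 10 sequenced samples gave 8 columns in 4 tables. In the first 3 tables, cells carrying shRNAs against Huwe1, a ubiquitin ligase, were set against controls as day 0 myoblasts in growth medium, as day 6 differentiating cultures and as day 8 myotubes. In the last table cells overexpressing USP10, a deubiquitinase, were set against a control at day 6. The controls of day 0 and day 6 were labelled wildtype, and the day 8 control carried a non-targeting RNA. Each knockdown column pooled 2 libraries with different shRNAs, delivered by lentivirus and selected with puromycin, and the labels give other shRNA sequences for day 0 and day 6 than for myotubes, whereas the methods name only the latter pair. Knockdown at day 0 and day 6 was made in myoblasts, whereas day 8 cultures were infected when already differentiating. USP10 was a cDNA under the EF1a promoter in a stable line. Each condition had 1 value, so a difference had no replicate error to be held against and no p-value is given. Ratios are log2 of (FPKM + 0.01), computed for genes at 1 FPKM or more in either column, and a gene was counted as different from 2-fold.

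Collagens are secreted proteins whose chains wind into triple helices. Fibrillar collagens such as types I, III and V assemble into the tensile fibrils of the connective tissue around muscle fibres. Type IV collagen forms the sheet of the basement membrane that wraps each fibre, and type VI collagen forms beaded filaments that link this sheet to the fibrils. Fibril-associated collagens decorate fibril surfaces, and transmembrane collagens stay anchored in the plasma membrane.

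Before the collagen values, the columns themselves need a description. Huwe1 stood at 38.3 FPKM in control and 15.2 FPKM in knockdown myoblasts, at 35.1 and 21.9 FPKM at day 6 and at 55.4 and 33.0 FPKM at day 8. Usp10 stood at 10.3 FPKM in the USP10-table control and 38.3 FPKM with USP10 overexpression. It was also higher in the day 6 Huwe1 knockdown than in that table's control, at 35.4 against 13.2 FPKM. The control columns of both day 6 tables carry the same file name in their headers, yet their values differ widely, and the library behind the control of the USP10 table could not be mapped. The former is called here the Huwe1-table control and the latter the USP10-table control, and the day 6 counts and class medians are given against both. The depth estimated from the smallest steps in the values was 7820000 fragments in the USP10-table control and 18100000 to 29900000 in the other 4 columns made of 1 library. On a transcript of 2000 bases, 1 FPKM was then worth 15.6 fragments in the USP10-table control and 36.2 to 59.7 in the others. The sum of 7 myotube genes, among them Myog, Ckm and Myh3, was 7.44 FPKM in control myoblasts, 14737 in the Huwe1-table control, 6667 in the USP10-table control and 11481 in the day 8 control. These are all mixed cultures measured in bulk, so fewer cells of a type and less RNA per cell cannot be told apart.

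Promoter sequence bears on the collagens because Col4a1 and Col4a2, the chains of the main basement membrane collagen, lie head to head. On mouse build GRCm38.p6 (RefSeq), Col4a1 starts at chromosome 8 position 11312826 on the minus strand and Col4a2 at position 11312805 on the plus strand, so the annotated transcripts overlap by 22 bases. The 30 bases that end 2 bases before the Col4a2 start, chr8:11312773-11312802 on the plus strand, are shown because this pair had the most even ratio of the chain pairs examined below. They lie in the untranslated start of the first exon of Col4a1, and a CCAAT motif and a CCCTCCCC motif are in capitals.
Col4a1 and Col4a2: CCAATttgttggcgctgccCCCTCCCCtcg
Col3a1, the most abundant collagen mRNA in 6 of the 8 columns, and Col6a3, whose knockdown ratio had opposite signs at day 6 and day 8, are shown for contrast. The lines give the 150 bases before the start of each, chr1:45311388-45311537 on the plus strand and chr1:90843972-90844121 on the minus strand, and neither motif matched in them on either strand, nor in the 250 bases searched.
Col3a1: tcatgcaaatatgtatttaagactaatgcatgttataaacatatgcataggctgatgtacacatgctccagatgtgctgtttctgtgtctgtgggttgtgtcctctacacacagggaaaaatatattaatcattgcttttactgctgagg
Col6a3: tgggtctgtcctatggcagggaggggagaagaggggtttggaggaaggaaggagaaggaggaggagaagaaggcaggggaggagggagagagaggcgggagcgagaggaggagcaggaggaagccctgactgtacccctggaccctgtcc
RefSeq promoters were found for 24 of the 28 genes, as 26 stretches. In the 250 bases before each start, CCAAT or its reverse complement ATTGG occurred in 10 of the 26 stretches (38.5%) against 33.8% of all 32851 stretches. CCCTCCCC or GGGGAGGG occurred in 10 of the 26 (38.5%) against 9.69% of all. Both motifs occurred before Col1a2 and Col4a5 as well as Col4a2. These are matches of letters, given as a description, and a link of the motifs to chain ratios or levels was not tested.

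The columns differed in how much collagen mRNA they held and in how it was shared among the classes. The summed level of the 28 genes was 1403 FPKM in control and 975 FPKM in knockdown myoblasts. At day 6 it was 412 FPKM in the Huwe1-table control, 1139 in the USP10-table control, 1684 in the Huwe1 knockdown and 1199 in the USP10 overexpressing cells. At day 8 it was 1898 FPKM for control and 2184 FPKM for knockdown cells. The Huwe1-table control thus held the least collagen mRNA of the 8 columns, 0.0730% of all FPKM against 0.161% to 0.468% in the other 7.

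**Figure D1:**
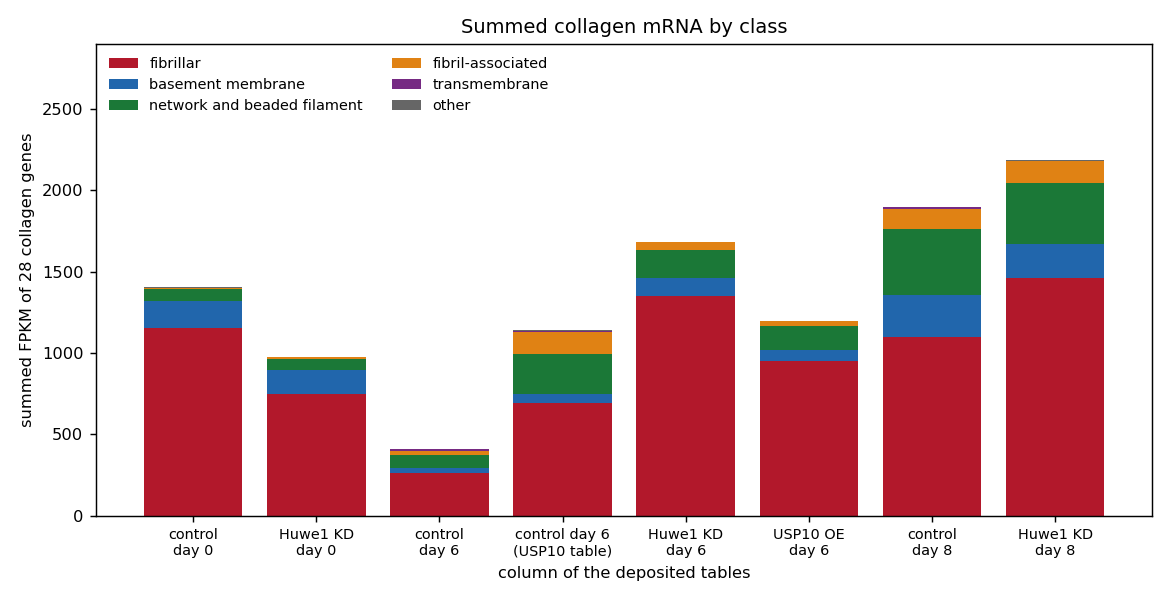
Summed FPKM of the 28 collagen genes in each of the 8 columns (vertical axis), stacked by collagen class in colour, with 1 value per column and no error. Fibrillar collagens take the largest part of every bar, and the bar of the Huwe1-table control at day 6 is the lowest, at 412 FPKM.

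Fibrillar collagens made up 82.0% of the sum in control and 76.9% in knockdown myoblasts. They made up 63.1% in the Huwe1-table control and 60.9% in the USP10-table control, but 80.1% in the day 6 Huwe1 knockdown and 79.0% in the USP10 overexpressing cells. At day 8 they made up 57.8% in control and 66.8% in knockdown cells. The 3 genes Col1a1, Col1a2 and Col3a1 together stood at 37.3% and 45.6% of the collagen sum in the day 6 controls and 71.3% and 69.1% in the treated cells. Network and beaded filament collagens took 5.15% in control myoblasts, 19.1% and 21.5% in the day 6 controls and 21.5% in the day 8 control, and fibril-associated collagens ranged from 0.714% in control myoblasts to 12.3% in the USP10-table control. Basement membrane collagens took 12.1% in control myoblasts, 7.56% in the Huwe1-table control, 4.75% in the USP10-table control and 13.5% at day 8.

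**Figure D2:**
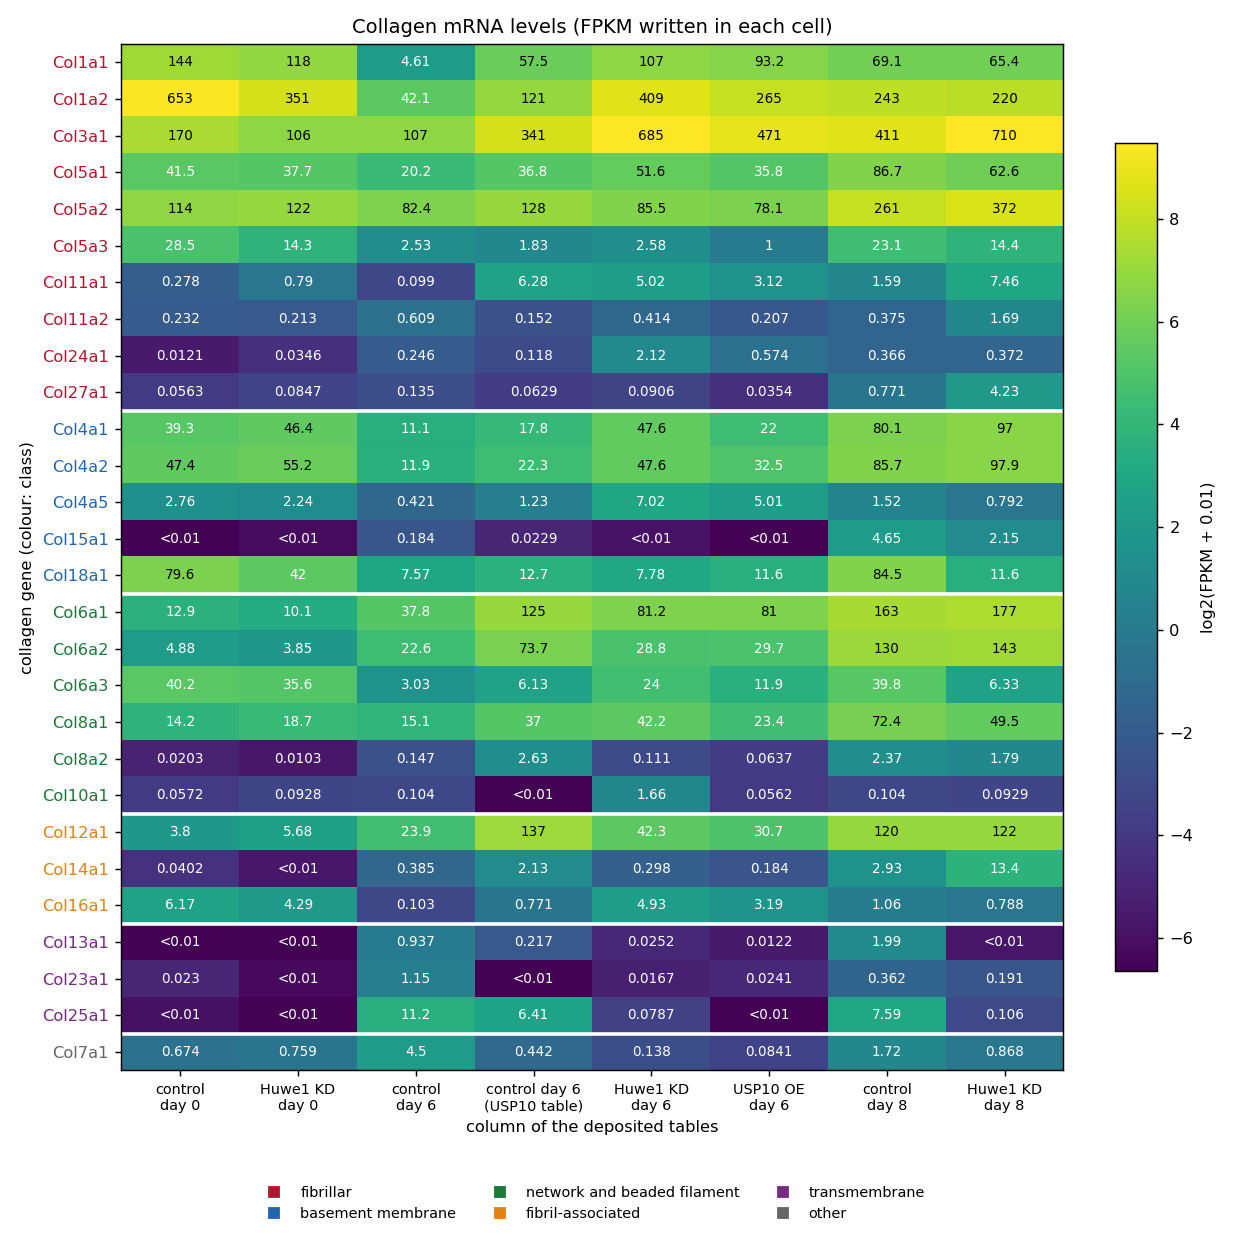
Level of each of the 28 collagen genes (rows, name coloured by class) in the 8 columns, coloured by log2(FPKM + 0.01) and with the FPKM written in each cell. Col1a2 is the highest collagen in the day 0 columns at 653 and 351 FPKM and Col3a1 in the other 6, while Col25a1 is above 1 FPKM in only the 3 differentiated controls.

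Among the fibrillar genes, type I and type III chains dominated. Col1a1 (chr11:94936224-94953042, plus strand), which encodes the major chain of type I collagen, stood at 144 FPKM in control and 118 in knockdown myoblasts, 4.61 in the Huwe1-table control and 107 in its knockdown, 57.5 in the USP10-table control and 93.2 with USP10, and 69.1 and 65.4 FPKM in the day 8 control and knockdown. Col1a2 (chr6:4504814-4541544, plus strand), its partner chain, stood at 653 and 351 FPKM at day 0, 42.1 and 409 in the day 6 Huwe1 table, 121 and 265 in the USP10 table, and 243 and 220.0 at day 8, control first in each pair. Both were lowest in the Huwe1-table control, and both were higher in the treated than in the control column of either day 6 table.

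Col3a1 (chr1:45311538-45349706, plus strand), the chain of type III collagen of pliable tissues, stood at 169.6 and 106 FPKM at day 0, 107 and 685 in the day 6 Huwe1 table, 341 and 471 in the USP10 table, and 411 and 710.2 at day 8. Unlike Col1a1 and Col1a2, it was more abundant in the day 8 control than in control myoblasts. Type V collagen sits in the core of type I fibrils and sets their width. Its gene Col5a1 stood at 41.5 and 37.7 FPKM at day 0, 20.2 and 51.6 in the day 6 Huwe1 table, 36.8 and 35.8 in the USP10 table, and 86.7 and 62.6 at day 8. Col5a2 stood at 114 and 122 FPKM at day 0, 82.4 and 85.5 in the day 6 Huwe1 table, 128 and 78.1 in the USP10 table, and 261 and 372 at day 8. Col5a1 and Col5a2 therefore spanned a narrower range than the type I chains, and their highest values lay at day 8.

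Col11a1, a fibrillar chain best known from cartilage, stood at 0.278 and 0.790 FPKM at day 0, 0.0990 and 5.02 in the day 6 Huwe1 table, 6.28 and 3.12 in the USP10 table, and 1.59 and 7.46 at day 8. The day 6 controls thus lay on opposite sides of both treated columns for this gene. Col5a3 ranged from 1.00 FPKM with USP10 to 28.5 FPKM in control myoblasts. The remaining fibrillar genes were low: Col11a2 peaked at 1.69 FPKM and Col27a1 at 4.23 FPKM, both in the day 8 knockdown, and Col24a1 at 2.12 FPKM in the day 6 knockdown. Col2a1, the main cartilage collagen, stayed under 1 FPKM in all 8 columns.

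The basement membrane genes were led by Col4a1, Col4a2 and Col18a1. Col4a1 (chr8:11198423-11312826, minus strand) stood at 39.3 and 46.4 FPKM at day 0, 11.1 and 47.6 in the day 6 Huwe1 table, 17.8 and 22.0 in the USP10 table, and 80.1 and 97.0 at day 8. Col4a2 (chr8:11312805-11449287, plus strand) stood at 47.4 and 55.2 FPKM at day 0, 11.9 and 47.6 in the day 6 Huwe1 table, 22.3 and 32.5 in the USP10 table, and 85.7 and 97.9 at day 8. The pair was lowest in the day 6 controls and highest at day 8. Col4a5 (chrX:141475385-141689234, plus strand), which encodes a type IV chain best known from the kidney glomerulus, stood at 2.76 and 2.24 FPKM at day 0, 0.421 and 7.02 in the day 6 Huwe1 table, 1.23 and 5.01 in the USP10 table, and 1.52 and 0.792 at day 8. It was highest in the 2 treated day 6 columns.

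Col18a1 (chr10:77052178-77166548, minus strand), whose protein carries the endostatin fragment and binds heparan sulphate chains into the basement membrane, behaved differently. Its level was 79.6 and 42.0 FPKM at day 0, 7.57 and 7.78 in the day 6 Huwe1 table, 12.7 and 11.6 in the USP10 table, and 84.5 and 11.6 at day 8. Neither treatment at day 6 moved it by 2-fold against either control, and the day 8 knockdown was below its control by 2.87 on the log2 scale (-2.87). Col15a1, its close relative, was at 4.65 FPKM in day 8 control and 2.15 FPKM in day 8 knockdown cells, and at 0.184 FPKM or less in the other 6 columns.

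Type VI collagen held chains of unlike pattern within a single assembly. Col6a1 (chr10:76708792-76726168, minus strand) stood at 12.9 and 10.1 FPKM at day 0, 37.8 and 81.2 in the day 6 Huwe1 table, 125 and 81.0 in the USP10 table, and 163 and 177 at day 8. Col6a2 (chr10:76595762-76623630, minus strand) stood at 4.88 and 3.85 FPKM at day 0, 22.6 and 28.8 in the day 6 Huwe1 table, 73.7 and 29.7 in the USP10 table, and 130.5 and 143 at day 8. Both were lowest in myoblasts and highest in day 8 cultures. Col6a3 (chr1:90765923-90843971, minus strand), the largest chain of type VI, stood at 40.2 and 35.6 FPKM at day 0, 3.03 and 24.0 in the day 6 Huwe1 table, 6.13 and 11.9 in the USP10 table, and 39.8 and 6.33 at day 8. It was high in myoblasts, low in the day 6 controls, and the column that was the higher of the pair at day 6 was the lower at day 8.

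Type VIII collagen forms short-chain networks. Col8a1 stood at 14.2 and 18.7 FPKM at day 0, 15.1 and 42.2 in the day 6 Huwe1 table, 37.0 and 23.4 in the USP10 table, and 72.4 and 49.5 at day 8. Its partner Col8a2 stood at 0.0203 and 0.0103 FPKM at day 0, 0.147 and 0.111 in the day 6 Huwe1 table, 2.63 and 0.0637 in the USP10 table, and 2.37 and 1.79 at day 8. Col8a2 was thus above 1 FPKM at day 8 and in the USP10-table control but not in the Huwe1-table control. Col10a1, a network collagen of hypertrophic cartilage, was at 1.66 FPKM in the day 6 Huwe1 knockdown and at 0.104 FPKM or less elsewhere.

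Of the fibril-associated genes, Col12a1 (chr9:79598991-79718831, minus strand), which binds type I fibrils, stood at 3.80 and 5.68 FPKM at day 0, 23.9 and 42.3 in the day 6 Huwe1 table, 137 and 30.7 in the USP10 table, and 119.9 and 122 at day 8. Col14a1 stood at 0.0402 and 0.00931 FPKM at day 0, 0.385 and 0.298 in the day 6 Huwe1 table, 2.13 and 0.184 in the USP10 table, and 2.93 and 13.4 at day 8. For both, the USP10-table control resembled the day 8 control more than it did the Huwe1-table control. Col16a1 stood at 6.17 and 4.29 FPKM at day 0, 0.103 and 4.93 in the day 6 Huwe1 table, 0.771 and 3.19 in the USP10 table, and 1.06 and 0.788 at day 8. It was highest in myoblasts and in the treated day 6 columns.

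Among the transmembrane collagens, Col25a1 and Col13a1 had the reverse pattern. Col25a1 (chr3:130131501-130599877, plus strand), a collagen known to take part in motor innervation of muscle, stood at 0.00639 FPKM in control myoblasts and was listed at 0 in knockdown myoblasts. It stood at 11.2 and 0.0787 FPKM in the day 6 Huwe1 table, at 6.41 FPKM in the USP10-table control, and was listed at 0 with USP10. At day 8 it was at 7.59 FPKM in control and 0.106 FPKM in knockdown cells. All 3 differentiated controls were thus at 6.41 FPKM or more and all 3 treated columns of day 6 and day 8 at 0.106 FPKM or less. Col13a1, found at the neuromuscular junction, stood at 0.937 and 0.0252 FPKM in the day 6 Huwe1 table, 0.217 and 0.0122 in the USP10 table, and 1.99 and 0.00926 at day 8, and was listed at 0 in both myoblast columns. Its levels lay near or under 1 FPKM, but the treated column was the lower in each of the 3 differentiated tables. Col23a1 reached 1.15 FPKM in the Huwe1-table control and was at 0.362 FPKM or less elsewhere. It was listed at 0 in the USP10-table control and stood at 0.0241 FPKM with USP10, so it did not share the pattern there. Col7a1 stood at 0.674 and 0.759 FPKM at day 0, 4.50 and 0.138 in the day 6 Huwe1 table, 0.442 and 0.0841 in the USP10 table, and 1.72 and 0.868 at day 8.

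In proliferating myoblasts, the collagens compared lay within 2-fold between Huwe1 knockdown and control. None of the 16 collagens at 1 FPKM or more was called in either direction, where 1.90% of all 10874 genes were at least 2-fold higher and 1.69% at least 2-fold lower. Shares this small leave few calls to be found among 16 genes. With no minimum, 4 listed collagens were at least 2-fold higher and 4 lower. The log2 ratios ran from -0.99 for Col5a3 to 0.58 for Col12a1, and 11 of the 16 were below 0. Col1a2, the most abundant of them, was lower by 0.90 (-0.90) and Col18a1 by 0.92 (-0.92). The class medians were -0.48 for fibrillar, -0.04 for basement membrane and -0.26 for network and beaded filament genes, against 0.00 over all genes. With 1 value per column, ratios of this size cannot be separated from library variation.

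The differentiation of control cells was compared across tables that were normalized separately, so these values are descriptions. From day 0 to the Huwe1-table control at day 6, 6 of 19 collagens were at least 2-fold higher and 10 at least 2-fold lower, where 21.5% and 23.2% of all genes were. All 4 basement membrane genes in the comparison were among the lower ones (median log2 ratio -2.34), as were 4 of 6 fibrillar genes (median -2.26). Network and beaded filament genes split, with Col6a2 at 2.21 and Col6a1 at 1.55 against Col6a3 at -3.72. Against the USP10-table control, 9 of 20 collagens were at least 2-fold higher and 9 lower, where 19.2% and 20.9% of all genes were. Col1a1, Col1a2, Col5a3, Col4a1, Col4a2, Col4a5, Col18a1, Col6a3 and Col16a1 were at least 2-fold lower than in myoblasts in both day 6 controls. Col6a1, Col6a2, Col12a1 and Col25a1 were at least 2-fold higher in both. These came from 17 collagens compared with both controls. Both ratios share the myoblast column, and the share of all genes called in both was not computed. The fibrillar median, however, was -0.18 with the USP10-table control, and Col3a1 (-0.66 and 1.01) and Col5a2 (-0.46 and 0.18) changed sign.

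Between day 6 and day 8, collagen mRNA was higher in the later control. The day 6 controls were labelled wildtype, whereas the day 8 control carried a non-targeting RNA. Time and treatment cannot be told apart in this step. From the Huwe1-table control, 21 of 24 collagens were at least 2-fold higher at day 8 and 2 lower, where 13.8% and 5.81% of all genes were. The 20 genes of the fibrillar, basement membrane, network and fibril-associated classes that were compared were all among the 21. From the USP10-table control, 11 of 23 were at least 2-fold higher and 1 lower, where 13.3% and 7.56% of all genes were and the median over all genes was 0.16. The class medians from the USP10-table control were 2.17 for basement membrane, 1.01 for fibrillar and 0.82 for network and beaded filament genes. Of 23 collagens compared from both, 10 were called higher from both. They were Col1a2, Col5a1, Col5a2, Col5a3, Col4a1, Col4a2, Col15a1, Col18a1, Col6a3 and Col13a1. Col11a1 and Col7a1 were called in opposite directions. Both ratios share the day 8 control, and the share of all genes called from both was not computed. Proliferation genes moved with this step: the sum of Mki67, Top2a, Ccnb1 and Cdk1 was 3.09 FPKM in the Huwe1-table control, 12.7 in the USP10-table control and 129 in the day 8 control, after 424 in control myoblasts. The part of dividing cells in the day 8 collagen levels was not tested.

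The day 6 controls themselves differed in their collagens. In the USP10-table control, 12 of 21 collagens were at least 2-fold above the Huwe1-table control and 2 below, where 11.2% and 8.66% of all genes were. All 5 network and beaded filament genes compared were higher, with a median log2 ratio of 1.71. Col11a1 had the highest ratio at 5.85, with 0.0990 FPKM in the Huwe1-table control. Col1a1 was higher by 3.64, Col12a1 by 2.52 and Col4a1 by 0.68.

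Against its own control, Huwe1 knockdown at day 6 had higher fibrillar and type IV collagen mRNA. The transmembrane genes Col25a1 and Col23a1 were lower there. In that comparison 14 of 22 collagens were at least 2-fold higher and 3 lower, where 17.6% and 13.4% of all 11695 genes were. The median log2 ratio was 2.87 over 8 fibrillar genes, 2.05 over 4 basement membrane genes and 1.48 over 5 network and beaded filament genes, against -0.01 over all genes. Col11a1 (5.53), Col16a1 (5.44) and Col1a1 (4.53) had the highest ratios, while Col5a2 (0.05), Col5a3 (0.03) and Col18a1 (0.04) were close to 0. Col11a1 and Col16a1 stood at only 0.0990 and 0.103 FPKM in that control. With a pseudocount of 1 their ratios were 2.45 and 2.43, below Col1a1 at 4.27. The 3 lower genes were Col25a1 (-6.98), Col23a1 (-5.44) and Col7a1 (-4.93), or -3.49, -1.08 and -2.27 with a pseudocount of 1. This comparison and both steps between control cultures above share the Huwe1-table control column, in which collagen mRNA was lowest.

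Against the USP10-table control, the count was smaller and the classes parted. In that setting 9 of 22 collagens were at least 2-fold higher and 5 lower, where 13.0% and 9.92% of all genes were. The median log2 ratio was 1.26 for basement membrane genes, 0.69 for fibrillar genes and -0.22 for network and beaded filament genes. Of 20 collagens compared with both controls, 9 were called higher against both. They were Col1a2, Col3a1, Col24a1, Col4a1, Col4a2, Col4a5, Col6a3, Col10a1 and Col16a1. Col25a1 was called lower against both. Both ratios share the knockdown column, and the share of all genes called against both was not computed. Col1a1 was at 0.90 and Col5a1 at 0.49 with this control, while Col11a1 (-0.32), Col6a1 (-0.62), Col6a2 (-1.35), Col12a1 (-1.70), Col5a2 (-0.59) and Col18a1 (-0.70) changed sign. Of these, Col6a2 and Col12a1 became at least 2-fold lower. Col23a1 and Col7a1 were under 1 FPKM in both columns with this control and were not compared. Type IV chains were thus at least 2-fold higher in the knockdown than in either control, with Col4a1 at 2.10 and 1.42, Col4a2 at 2.00 and 1.09 and Col4a5 at 4.03 and 2.51.

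**Figure D3:**
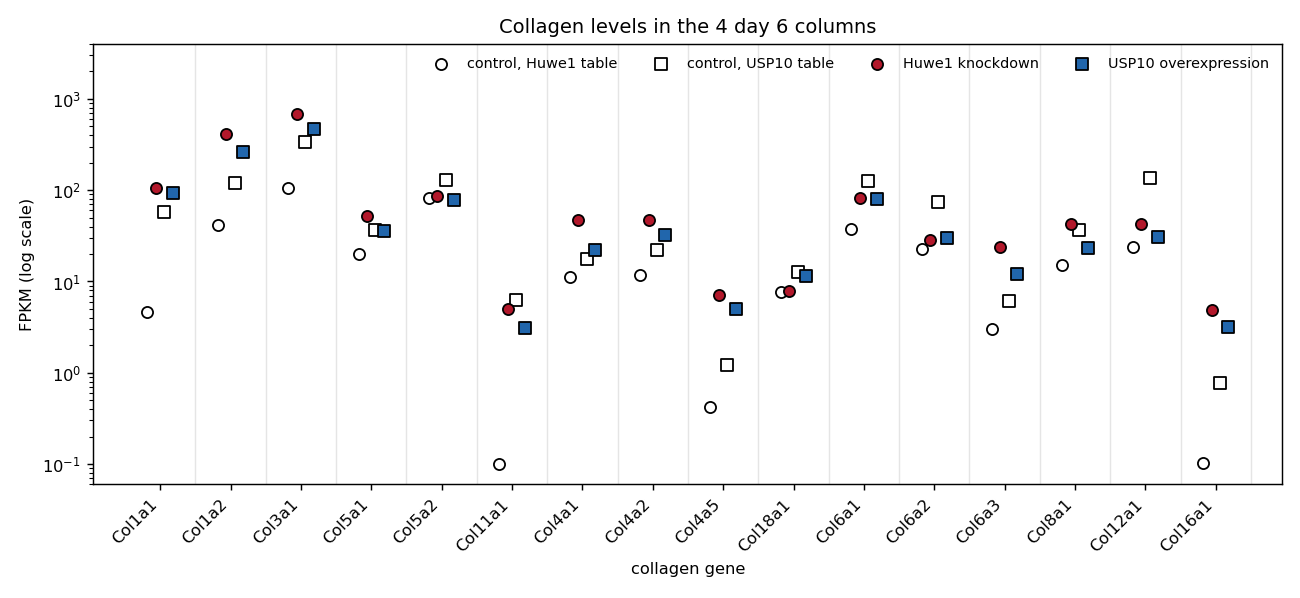
FPKM on a log axis of 16 collagen genes in the 4 day 6 columns, with open symbols for the 2 controls, the red circle for the Huwe1 knockdown and the blue square for USP10 overexpression, and 1 value per symbol. For Col1a1, Col1a2, Col3a1, Col4a1, Col4a2, Col4a5, Col6a3 and Col16a1 both treated values lie above both controls, whereas for Col6a1, Col6a2, Col11a1 and Col12a1 the USP10-table control is the highest of the 4.

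With USP10 overexpression at day 6, more collagens were called lower than higher against its own control. There 3 of 20 collagens were at least 2-fold higher and 6 lower, where 9.70% and 10.0% of all genes were. The higher genes were Col4a5 (2.02), Col16a1 (2.03) and Col1a2 (1.13), and the lower ones Col11a1 (-1.01), Col6a2 (-1.31), Col12a1 (-2.16), Col14a1 (-3.46), Col8a2 (-5.16) and Col25a1, which was listed at 0 in the treated cells. The median log2 ratio was -0.04 for fibrillar, 0.43 for basement membrane and -0.66 for network and beaded filament genes, against 0.05 over all genes. Within the fibrillar class, Col1a1 (0.70), Col1a2 and Col3a1 (0.47) were above 0 and Col5a2 (-0.72), Col5a3 (-0.86) and Col11a1 below.

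With the Huwe1-table control in place of its own, 9 of 20 collagens were at least 2-fold higher in the USP10 cells and 4 lower, where 17.5% and 15.5% of all genes were. The fibrillar median was then 2.14 and the network and beaded filament median 0.86. Of 18 collagens compared with both controls, Col1a2, Col4a5 and Col16a1 were called higher and Col25a1 lower against both. The share of all genes called against both was not computed, and both ratios share the USP10 column. Col11a1 was called in opposite directions, at -1.01 and 4.84, and Col6a1 (-0.63 and 1.10), Col6a2 (-1.31 and 0.40), Col8a1 (-0.66 and 0.63), Col12a1 (-2.16 and 0.36), Col18a1 (-0.13 and 0.61) and Col5a1 (-0.04 and 0.83) also changed sign. Set side by side with their own controls, the knockdown and the USP10 cells had log2 ratios of 3.28 and 1.13 for Col1a2, 4.03 and 2.02 for Col4a5, and 5.44 and 2.03 for Col16a1. With the USP10-table control for both, these were 1.76 and 1.13, 2.51 and 2.02, and 2.66 and 2.03.

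In day 8 myotubes with Huwe1 knockdown, a few collagens were called in each direction. Of 25 collagens, 4 were at least 2-fold higher and 5 lower, where 7.89% and 10.0% of all 11755 genes were. The higher genes were Col27a1 (2.44), Col11a1 (2.22), Col14a1 (2.19) and Col11a2 (2.14), of which Col11a1 and Col14a1 exceeded 5 FPKM. The lower genes were Col13a1 (-6.70), Col25a1 (-6.03), Col18a1 (-2.87), Col6a3 (-2.65) and Col15a1 (-1.11). Col1a1 (-0.08), Col1a2 (-0.15), Col4a1 (0.28), Col4a2 (0.19), Col6a1 (0.12), Col6a2 (0.14) and Col12a1 (0.03) were close to their control. The class medians were 0.51 for fibrillar, -0.93 for basement membrane and -0.40 for network and beaded filament genes, against 0.00 over all genes. With a minimum of 5 FPKM the fibrillar median was -0.080 and the basement membrane median 0.19, so both signs turned. Col18a1 and Col6a3 were also lower in the day 6 controls than in the day 8 control, and the summed proliferation genes were at 11.9 FPKM in the day 8 knockdown against 129 in its control. The part of dividing cells in these ratios was not tested.

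**Figure D4:**
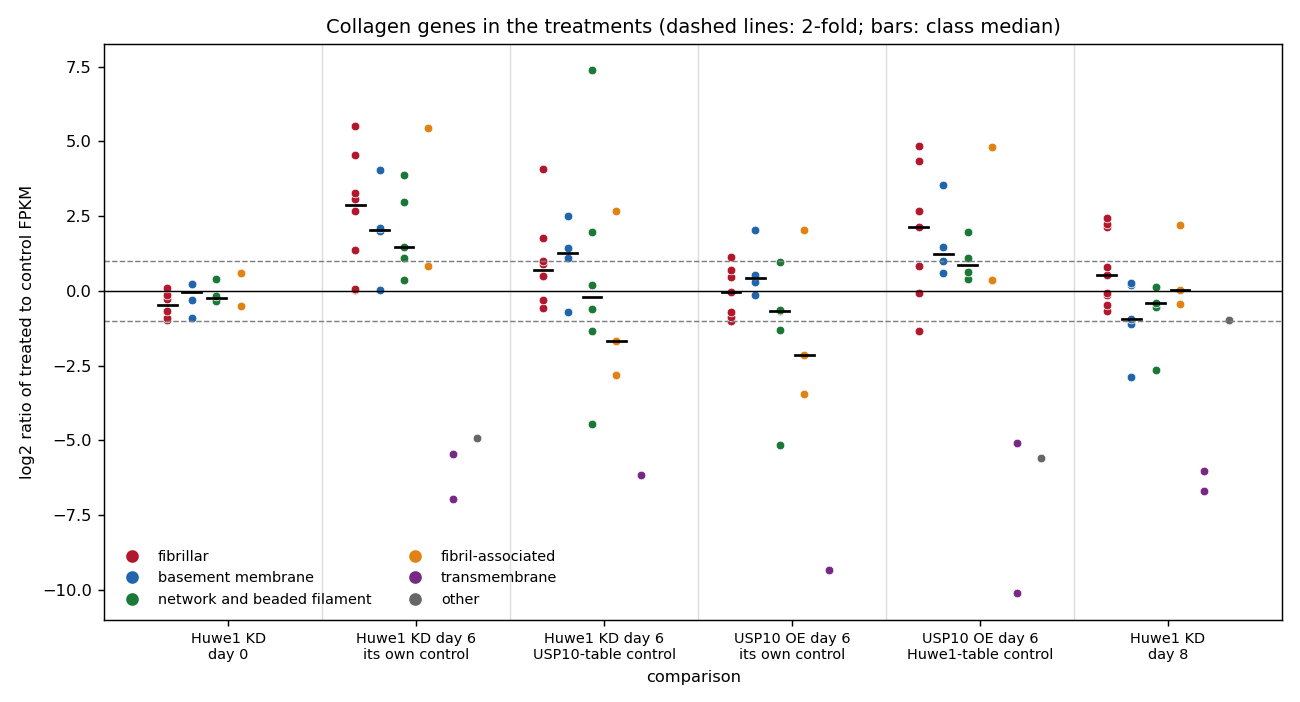
Log2 ratio of treated to control FPKM for each collagen at 1 FPKM or more in either column (points, coloured by class) in 6 comparisons, with class medians as bars and dashed lines at 2-fold. Fibrillar and basement membrane points lie higher in the day 6 Huwe1 knockdown with its own control (medians 2.87 and 2.05) than with the USP10-table control (0.69 and 1.26), and the day 0 points stay inside the dashed lines.

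Ratios between the chains of an assembly are taken within a column and so do not depend on the normalization between tables. Col4a2 over Col4a1 stayed between 1.00 and 1.47 in the 8 columns while the level of Col4a1 ran from 11.1 to 97.0 FPKM. Col1a2 over Col1a1 ran from 2.11 in the USP10-table control to 9.13 in the Huwe1-table control, and was 2.84 to 4.54 in the other 6. Col5a2 over Col5a1 ran from 1.66 to 5.94. Col6a1 over Col6a2 ran from 1.24 at day 8 to 2.82 in the day 6 knockdown, a narrow range. Col6a1 over Col6a3, by contrast, was 0.322 and 0.285 in myoblasts, 12.5 and 3.39 in the day 6 Huwe1 table, 20.4 and 6.79 in the USP10 table, and 4.10 and 28.0 at day 8. Col6a2 over Col6a3 ran from 0.108 to 22.7. Among the type VI chains, Col6a1 and Col6a2 therefore kept a more even ratio to each other than either did to Col6a3. Col8a1 over Col8a2 had a wide range as well, from 14.0 in the USP10-table control to 1821 in knockdown myoblasts, where Col8a2 was at 0.0103 FPKM. Col3a1 over Col1a1, which compares separate collagen types, was 1.18 and 0.900 in myoblasts and at least 5.05 in all 6 other columns, with 23.2 in the Huwe1-table control.

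**Figure D5:**
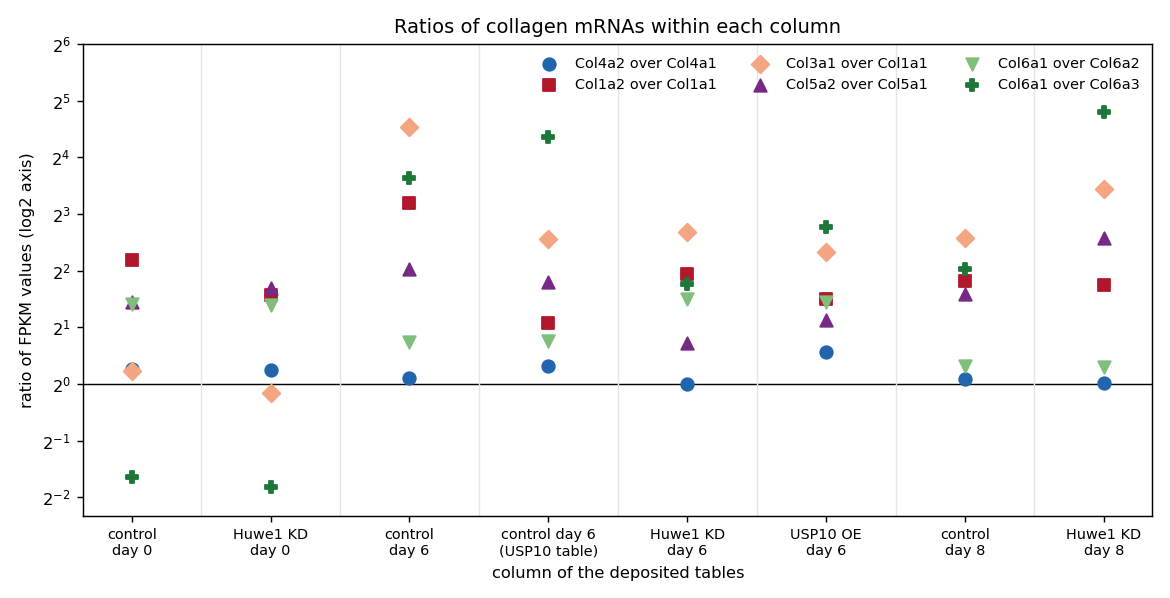
Ratio of the FPKM of pairs of collagen mRNAs within each of the 8 columns, on a log2 axis, with 1 value per symbol. Col4a2 over Col4a1 (blue circles) stays between 1.00 and 1.47, while Col6a1 over Col6a3 (dark green crosses) runs from 0.285 to 28.0.

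The genes that fold, cut, cross-link and bind collagen were read from lists that held no collagens. Of 18 folding and modification genes compared, 3 were at least 2-fold higher and 1 lower in the day 6 knockdown with its own control, where 17.6% and 13.4% of all genes were, and 0 and 4 with the USP10-table control, where 13.0% and 9.92% were. Crtap, a part of the prolyl 3-hydroxylation complex, stood at 11.5 FPKM in the Huwe1-table control, 30.0 in the knockdown, 42.1 in the USP10-table control and 34.8 with USP10. Fkbp10, a collagen chaperone of the endoplasmic reticulum, stood at 14.5, 35.4, 31.0 and 47.5 FPKM in the same order. Leprel1, a prolyl 3-hydroxylase, stood at 5.09, 2.50, 9.84 and 1.13 FPKM. Serpinh1, the collagen chaperone HSP47, stood at 734 and 428 FPKM in myoblasts, 349 and 403 in the day 6 Huwe1 table, 462 and 438 in the USP10 table, and 594 and 608 at day 8. P4ha1, a subunit of the prolyl 4-hydroxylase that stabilizes the triple helix, ranged from 60.2 to 113 FPKM over the 8 columns. The median log2 ratio of the folding genes in the day 6 knockdown was 0.51 with its own control and -0.16 with the USP10-table control, where the collagens compared had medians of 1.74 and 0.49.

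Of 10 cleavage and cross-linking genes, 7 were at least 2-fold higher and none lower in the day 6 knockdown with its own control (17.6% and 13.4% of all genes), and 4 higher and 1 lower with the USP10-table control (13.0% and 9.92%). Pcolce2, an enhancer of procollagen C-proteinase, stood at 0.604 FPKM in the Huwe1-table control, 84.7 in the knockdown, 8.44 in the USP10-table control and 51.7 with USP10. Its relative Pcolce stood at 14.8, 129, 80.4 and 82.4 FPKM in that order. Loxl2, a lysyl oxidase active on type IV collagen, stood at 1.59, 30.9, 4.06 and 17.9 FPKM. Lox, the main cross-linking enzyme of fibrils, stood at 31.0, 186, 164 and 262 FPKM. Pcolce2 and Loxl2 were higher in both treated columns than in both controls, as were Col1a2 and Col16a1. Pcolce2, Pcolce and Loxl2 had been picked for their large day 6 knockdown ratio. In myoblasts Pcolce2 was at 108 FPKM without and 95.6 FPKM with the knockdown.

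Collagen receptors and the other basement membrane components were also compared. Of 6 receptors, 4 were at least 2-fold higher and none lower in the day 6 knockdown with its own control (17.6% and 13.4% of all genes), and 3 of 7 were higher and 1 lower with the USP10-table control (13.0% and 9.92%). Itga11, the integrin chain that binds type I collagen on fibroblasts, stood at 0.141 FPKM in the Huwe1-table control, 12.6 in the knockdown, 5.80 in the USP10-table control and 12.4 with USP10. Mrc2, an uptake receptor for collagen fragments, stood at 9.69, 52.5, 36.7 and 53.2 FPKM, and Ddr2, a receptor kinase for fibrillar collagen, at 34.8, 124, 42.1 and 138 FPKM. All 3 were higher in both treated columns than in both controls. Of 11 laminins, nidogens and perlecan compared, 6 were at least 2-fold higher and none lower with the own control (17.6% and 13.4% of all genes), and 4 and none with the USP10-table control (13.0% and 9.92%). Nid1, which bridges laminin and type IV collagen, stood at 10.7, 81.8, 33.4 and 130.3 FPKM. Lamb1 stood at 12.9, 68.1, 37.9 and 60.2 FPKM, and Lama2, the laminin chain of the muscle basement membrane, at 9.66, 28.7, 10.9 and 18.9 FPKM. Lama4 stood at 0.109, 5.65, 4.86 and 2.61 FPKM and so did not separate treated from control columns. With USP10 against its own control, 0 of 18 folding genes were at least 2-fold higher and 3 lower, 2 of 10 cleavage and cross-linking genes higher and 1 lower, 2 of 6 receptors higher and 1 lower, and 1 of 11 laminins, nidogens and perlecan higher and 1 lower, where 9.70% and 10.0% of all genes were. With the Huwe1-table control the same lists had 5 higher and 1 lower of 18, 6 and 0 of 10, 3 and 1 of 5, and 5 and 1 of 11, where 17.5% and 15.5% of all genes were. In the day 0 knockdown none of 17 folding genes, 10 cleavage and cross-linking genes and 4 receptors was called. Of 10 laminins, nidogens and perlecan, Nid2 was higher, at 5.88 and 14.1 FPKM, and Lamb3 lower, at 3.86 and 1.89 FPKM. Of all genes, 1.90% were higher and 1.69% lower there. In the day 8 knockdown 5 of 11 laminins, nidogens and perlecan were higher and 2 lower, where 7.89% and 10.0% of all genes were, with Nid1 at 62.8 against 29.1 FPKM and Lamb1 at 83.8 against 40.5 FPKM.

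Markers of other cell states also differed between the day 6 columns. In the USP10 table the collagen sum was 1139 FPKM in the control and 1199 FPKM with USP10. The sum of 7 myotube genes was 2438 FPKM in the Huwe1 knockdown and 3156 with USP10, below both day 6 controls, and 2310 in the day 8 knockdown against 11481 in its control. The sum of 7 fibroblast and mesenchymal genes was 13.2 FPKM in the Huwe1-table control, 113 in the USP10-table control, 3727 in the knockdown and 3566 with USP10, and between 26.5 and 47.7 FPKM in the 4 columns of day 0 and day 8. Dcn, a small proteoglycan that binds fibrils, made up most of it, at 2987 FPKM in the knockdown and 3037 with USP10, followed by Ly6a at 584 and 429 FPKM and Cd34 at 145 and 93.2 FPKM. Of the same list, Thy1 was under 1 FPKM in every column and Tcf21 was listed at 0. In the day 8 knockdown the mesenchymal sum was 26.5 FPKM against 27.2 FPKM in its control, but its members went both ways. Pdgfra was at 7.74 against 1.95 FPKM and Dcn at 8.75 against 4.19 FPKM. Ly6a was at 4.28 against 13.9 FPKM and Cd34 at 5.45 against 7.22 FPKM. The part of these cell states in the collagen ratios was not tested. Ptprc, Csf1r and Emr1 of 4 macrophage genes, Pecam1 and Kdr of 4 endothelial genes, Adipoq and Plin1 of 4 adipocyte genes, and Acan, Matn1 and Col2a1 of 4 chondrocyte genes were under 1 FPKM in every column. The endothelial sum, mostly Cdh5 in myoblasts and in the treated day 6 columns, was 0.106 and 0.781 FPKM in the day 6 controls, 7.92 and 7.31 FPKM in the treated columns, and 13.6 and 11.4 FPKM in control and knockdown myoblasts. The macrophage sum ranged from 0.823 to 4.65 FPKM, the adipocyte sum from 0.579 to 7.42 FPKM and the chondrocyte sum, nearly all Sox9, from 7.55 to 35.1 FPKM.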

How the data were processed

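RNA from C2C12 cells was purified on oligo(dT) beads, made into libraries with a directional kit and sequenced on an Illumina HiSeq 2000. The authors mapped reads with Tophat and ran Cuffdiff. Their processing notes name Bowtie2 and genome build mm10, and tool versions are not given in the sources used here. The deposited FPKM values come in 4 tables, each normalized separately by the authors, with 1 control column (1 library) and 1 treated column (2 pooled libraries for Huwe1 knockdown, 1 for USP10). All 8 value columns were used. The tables also hold the authors' fold changes, test statistics, p-values and q-values, which were not used, and a status field. That field marked none of the 44 collagen genes as failed or as too deep to test. Whether a test was skipped for low values was not looked up.

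From these values log2((FPKM + 0.01)/(FPKM + 0.01)) was computed for genes at 1 FPKM or more in either column, in Python 3.11.15 with pandas 2.3.3 and numpy 2.4.6. With 1 value per condition no test was run, and a gene counted as different from 2-fold. Counts and medians of collagens stand beside those over all genes. The collagen members, the classes and the gene lists were chosen with earlier results of these data known. Genes given in all columns were the 4 highest of each class, those at least 4-fold different with 5 FPKM or more in a table, and their partner chains. Of the pathway lists (folding and modification, cleavage and cross-linking, receptors, laminins, nidogens and perlecan), the 3 genes with the largest absolute day 6 knockdown ratio among those at 5 FPKM or more in 1 column of that table were given, plus Serpinh1, P4ha1, Lox, Lama2, Nid1 and Itga11. Other genes of these lists and the marker genes are given by counts, sums or examples.

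Depth was estimated for the 5 columns of 1 library from the smallest value step of genes with a single transcript. The method was tried on simulated counts drawn under the model that it assumes, which does not check that model on these data. Depth was not estimated for pooled columns, where FPKM steps mix libraries, and covers counting precision only. Each gene overlapped its GENCODE M21 model, and no collagen shared over 10% of its exon bases with another gene. Promoters were taken from RefSeq (GRCm38.p6). Alternatives tried were a pseudocount of 0.1 or 1 FPKM, no minimum, a minimum of 5 FPKM, 1 FPKM in both columns, centring on the median gene and the other day 6 control. The last was added for the step from day 6 to day 8 after the data were seen.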

Additional observations from a re-analysis of the deposited data

Results flagged for a closer look

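Col6a3, the large chain of type VI collagen, had a log2 ratio of Huwe1 knockdown to control of 2.98 at day 6 and -2.65 at day 8, opposite signs under the same contrast at 2 time points. The levels behind these ratios were, control first, 3.03 and 24.0 FPKM at day 6 and 39.8 and 6.33 FPKM at day 8. With the USP10-table control the day 6 ratio was 1.97, still of opposite sign to day 8. The difference between the time points was not tested, since each column holds 1 value, and the shRNAs and the time of infection also differed between them. No group held the 4 samples that a search for outlying samples needs.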

How the results depend on the processing

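No paired analysis was possible because the tables hold no replicate values, and leaving out libraries was not possible for the same reason. Of the 200 recomputed counts and class medians, 150 stayed within 1.5-fold of their value and the rest moved further. This differed by alternative: with the other day 6 control 3 stayed, 16 moved and 1 reversed. Of the named-gene ratios, 62 moved and 9 reversed with that control. Of the class medians, 10 recomputed values had the opposite sign, 3 of them with the other day 6 control, 4 with a minimum of 5 FPKM, 2 with no minimum and 1 with 1 FPKM required in both columns. Those close to 0 were, in the day 0 knockdown, the basement membrane median (0.22 with a minimum of 5 FPKM, 0.20 with none) and the network median (0.11 with none), and the fibrillar median with USP10 (0.21 with a minimum of 5 FPKM). A pseudocount of 0.1 and centring on the median gene moved no count or class median. Of the named-gene ratios, 15 moved with a pseudocount of 0.1 and 24 with a pseudocount of 1. With a pseudocount of 1, the fibrillar median of the day 6 knockdown was 1.89, and 1 collagen was at least 2-fold lower from day 6 to day 8.

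With the other day 6 control, the day 6 knockdown had 9 collagens at least 2-fold higher and 5 lower, with medians of 0.69 (fibrillar), 1.26 (basement membrane) and -0.22 (network and beaded filament). USP10 had 9 higher, with medians of 2.14, 1.22 and 0.86 for the same classes. From day 0 to day 6 the medians were -0.18, -1.15 and 3.27. From day 6 to day 8, 11 were higher and 1 lower, with medians of 1.01, 2.17 and 0.82. Named genes changed sign with it in 20 ratios. Those that were at least 2-fold different before were Col11a1 (-0.32) and Col6a1 (-0.62) in the knockdown, Col12a1 (0.36), Col6a2 (0.40) and Col11a1 (4.84) with USP10, and Col11a1 (-1.97), Col8a2 (-0.15), Col12a1 (-0.19) and Col7a1 (1.94) from day 6 to day 8. The others were Col5a2 (-0.59), Col18a1 (-0.70), Col6a2 (-1.35) and Col12a1 (-1.70) in the knockdown, Col5a1 (0.83), Col18a1 (0.61), Col6a1 (1.10) and Col8a1 (0.63) with USP10, Col3a1 (1.01) and Col5a2 (0.18) from day 0 to day 6, and Col25a1 (0.24) from day 6 to day 8.

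With 1 FPKM required in both columns, the counts were 9 higher and 0 lower in the day 6 knockdown (fibrillar median 2.02), 2 higher and 3 lower in the day 8 knockdown (fibrillar median -0.080), 3 lower with USP10, 3 higher from day 0 to day 6 and 1 lower from day 6 to day 8. With a minimum of 5 FPKM, they were 1 lower in the day 6 knockdown, 2 higher and 3 lower in the day 8 knockdown (fibrillar median -0.080, basement membrane median 0.19) and 0 lower from day 6 to day 8. With no minimum, 4 were higher and 4 lower in the day 0 knockdown, 10 lower in the day 6 knockdown (fibrillar median 1.36, network median 0.82), 8 higher and 10 lower in the day 8 knockdown (basement membrane median -0.29), 7 higher and 13 lower with USP10 (network median -0.0433), 18 higher from day 0 to day 6 (fibrillar, basement membrane and network medians -0.66, -1.69 and 1.55) and 6 lower from day 6 to day 8. These filters change which low genes enter. The signs of the fibrillar and basement membrane medians at day 8 therefore rest on genes under 5 FPKM. The precision of low values is limited by depth, most in the USP10-table control.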
